A study of Xenopus tropicalis with 15 samples.

Results

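Ribosome biogenesis factors are the proteins that make, fold, modify and cut ribosomal RNA and join it with ribosomal proteins. They were followed here in blood cells of the frog Xenopus tropicalis, fresh from the animal and in short culture with or without erythropoietin (EPO). The genes were taken by symbol: every nop, utp, rrp and nol symbol with a number, noc2l to noc4l, imp3, imp4, tsr1 to tsr3, and pes1, bop1, wdr12, gar1, nhp2, dkc1, fbl, ncl, npm1, bysl, nob1 and ltv1. Of the 26531 genes in the count table, 54 met this rule, and 50 of them were among the 8939 genes with enough counts to test. The 4 genes that were not tested were utp11 with 112 counts over all libraries, tsr3 with 77, nol9 with 71 and nol4 with 61. The symbols nol4 and nol4l match the pattern, but neither gene has an established role in ribosome assembly.

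Total peripheral blood cells of wild-type frogs were collected from the heart and washed. The 15 libraries of 3' RNA-seq, which reads the end of each transcript, fall into 5 groups of 3. These are fresh cells before culture, control cells after 1.5 h and 4.0 h in a diluted medium (IMDM) containing fetal calf serum, and cells kept for 1.5 h and 4.0 h in the same medium with 1 ng/mL EPO. The EPO was recombinant X. tropicalis protein made in E. coli, and the submitters call the libraries of a group biological replicates without naming animals, so a p-value here reflects how far these samples scatter, which may be technical in part. No difference between replicated groups can be assigned to 1 cell type, because fewer cells of a type and less RNA per cell cannot be told apart in bulk RNA.

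Ribosome assembly starts in the nucleolus, where RNA polymerase I makes a long precursor RNA. Small nucleolar RNPs (snoRNPs) guide its chemical modification: the box C/D class methylates ribose and the H/ACA class makes pseudouridine. The small subunit processome then shapes the precursor of the 40S subunit, a separate set of factors builds the 60S subunit, and late factors escort both to the cytoplasm. Growth signals raise the expression of these genes in many cell types through Myc, and in mammals early red cell precursors are rich in nucleoli while late ones lose them. Frog red cells keep their nucleus in the circulation.

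Totals per library ran from 1329340 to 6351053 counts, and the 54 genes together took 664 to 3853 of them, or 0.0494 to 0.0675%. Depth differed between groups. Totals were 1329340 to 2329659 in fresh cells, 2350234 to 4472724 in control culture at 1.5 h and 1958663 to 3388564 at 4.0 h. With EPO they were 3904765 to 5868379 at 1.5 h and 2287764 to 6351053 at 4.0 h. Each EPO library at 1.5 h was deeper than the control of the same replicate number. Globin genes took 41.9 to 48.4% and genes of cytosolic ribosomal proteins 18.5 to 21.7%. Levels are given as CPM (counts scaled to 1e6 in tested genes by the TMM method), and 1 count was worth 0.152 to 0.738 CPM depending on the library. These levels are not corrected for length and are compared between libraries, not between genes. The label of blood was checked on erythroid markers, of which 6 of 7 were in the table and all 6 were tested, with a sum of 349573 to 453258 CPM. Nearly all of it was globin: in fresh cells the means were 232011 CPM for hba1, 169399 CPM for hbg1 and 3925 CPM for alas2. Sums were 357 to 498 CPM for the thrombocyte markers (7 of 10 in the table) and 221 to 486 CPM for the granulocyte and monocyte markers (10 of 11). Most of the thrombocyte sum was tubb1, with group means of 354 to 422 CPM. The sums were 34.7 to 73.7 CPM for B cells (6 of 7) and 0.724 to 7.80 CPM for T and NK cells (5 of 8, none of them tested).

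No ribosome biogenesis gene passed an adjusted p of 0.05 in any of the 6 comparisons with edgeR's quasi-likelihood test, in which all 8939 genes were adjusted together. The share of all tested genes that passed was 0.324% for control culture at 1.5 h against fresh cells, 0.0671% for control culture at 4.0 h against fresh cells and 0.0112% for control culture at 4.0 h against 1.5 h. It was 0.436% for EPO against control at 1.5 h, 0.19% for EPO against control at 4.0 h and 0% for the difference between the EPO effects at the 2 times. A count of 0 among 50 genes is near these shares. At an unadjusted p under 0.05 the counts were 2, 4, 3, 2, 2 and 1 of 50 genes in the same order, against 9.69%, 8.1%, 3.73%, 7.13%, 7.1% and 2.55% of all tested genes. The DESeq2 Wald test gave 0 of the 35, 43, 50, 50, 40 and 50 genes to which it assigned an adjusted p, against 1.04%, 0.225%, 0.0448%, 0.794%, 0.697% and 0% of all genes with one. With limma voom 1 of 50 passed, npm1 in EPO against control at 1.5 h, where 0.705% of all tested genes passed. It gave 0 of 50 in the other 5 comparisons, against 0.268%, 0.0112% and 0.0224% of all genes in the culture comparisons, 0.291% for EPO at 4.0 h and 0.0112% for the difference of the EPO effects.

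Over 1405 well-measured genes, libraries that carry the same replicate number deviated together (median correlation 0.404 over 30 pairs), so the same test was also run with that number as a block. Over the ribosome biogenesis genes alone the correlation was weaker, with a median of 0.0856 and a range of -0.20 to 0.41 over the same pairs. Differently numbered libraries had a median of -0.0653 over these genes and -0.259 over the 1405 genes. Deviations from a group mean cancel within the group, so these negative values follow from the positive ones and are not separate evidence of pairing. The 1405 genes were chosen for a high level, while the tested ribosome biogenesis genes had a median of 7.98 CPM. The part of their low counts in the weaker correlation was not tested. With the block 1 gene passed, npm1, which rose in EPO against control at 1.5 h, where 1.07% of all tested genes passed as higher. In the other 5 comparisons 0 of 50 passed with the block, against 1.31% of all tested genes for control culture at 1.5 h and 0.593% for control culture at 4.0 h, each set against fresh cells. The shares were 0.0895% for 4.0 h against 1.5 h of control culture, 0.85% for EPO at 4.0 h and 0.134% for the difference of the EPO effects.

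**Figure D1:**
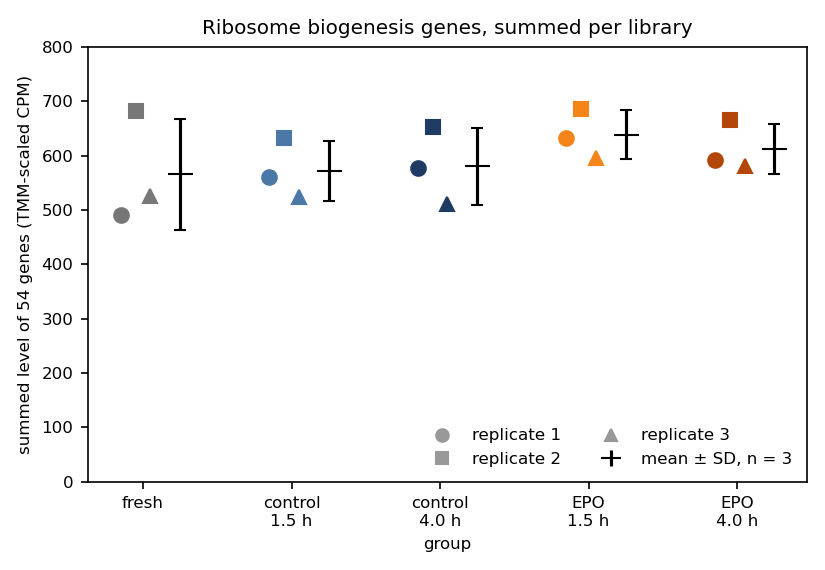
Summed level of the 54 ribosome biogenesis genes (y axis, TMM-scaled CPM, from 0) in each of the 15 libraries by group, with the symbol giving the replicate number and black bars the mean and SD of 3 libraries. Replicate 2 is the highest in all 5 groups, and the group means lie between 566 and 638 CPM, closer together than the replicates of the fresh group.

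The summed level of the 54 genes was 490, 681 and 525 CPM in fresh replicates 1, 2 and 3, a mean of 566 ± 102 (SD, n = 3). It was 561, 632 and 524 CPM in control culture at 1.5 h (572 ± 55.2) and 577, 653 and 511 CPM at 4.0 h (581 ± 71.0). With EPO it was 633, 686 and 597 CPM at 1.5 h (638 ± 44.8) and 591, 666 and 582 CPM at 4.0 h (613 ± 46.1). All groups overlapped, and the means differed by less than the SD of the fresh group. Within a replicate number the EPO library was above its control each time, by 72.5, 53.3 and 72.6 CPM at 1.5 h and by 14.4, 12.8 and 70.5 CPM at 4.0 h. Without npm1 these differences were 49.8, 27.6 and 61.1 CPM at 1.5 h and 4.92, 4.80 and 59.7 CPM at 4.0 h. As a plain share of all counts, EPO at 1.5 h (0.0623 to 0.0672%) lay above control at 1.5 h (0.0516 to 0.0567%) without overlap, which the scaled level did not show.

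The summed level also differed between replicate numbers, although the ranges of replicates 1 and 3 overlapped. Replicate 2 was highest in 5 of 5 groups (632 to 686 CPM, against 490 to 633 CPM in replicate 1 and 511 to 597 CPM in replicate 3), also when nop53, the gene with the most counts, was left out. Of the 50 tested genes, 27, 25, 27, 22 and 23 had their highest level of a group in replicate 2 (fresh, control 1.5 h, control 4.0 h, EPO 1.5 h, EPO 4.0 h), where 31.4 to 34.4% of all tested genes did. Replicate 2 also had the highest share of counts in ribosomal protein genes in 5 of 5 groups, 21.3 to 21.7%, while replicate 1 had the lowest at 18.5 to 19.0% and the highest globin share at 46.7 to 48.4%. The part of either share in the level of these genes was not tested.

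Nucleophosmin and nucleolin are the 2 abundant RNA-binding proteins and chaperones of the nucleolus. The gene npm1, which encodes nucleophosmin, a histone and ribosomal protein chaperone, was at 25.3, 21.5 and 39.0 CPM in control culture at 1.5 h and at 48.0, 47.2 and 50.5 CPM with EPO at 1.5 h. All 3 EPO libraries lay above all 3 controls and were the highest of the 15 libraries. EPO against control gave a log2 fold change of 0.78 ± 0.231 (SE), with a 95% interval of 0.31 to 1.24, an unadjusted p of 0.00197 and an adjusted p of 0.205 in edgeR's test. With the replicate block it was 0.79 with an adjusted p of 0.0375, and limma voom gave an adjusted p of 0.0420. The blocked call was lost when 1 library was left out in 5 of 6 cases. Leaving out control replicate 1 or 2 gave a blocked adjusted p from edgeR of 0.177 or 0.408. Leaving out EPO replicate 1, 2 or 3 gave 0.21, 0.102 or 0.159. It was 0.0110 without control replicate 3, the highest control.

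At 4.0 h npm1 was at 25.7, 27.3 and 29.2 CPM in control culture and at 35.2, 35.2 and 40 CPM with EPO, again without overlap. The log2 fold change was 0.43 ± 0.235, with an adjusted p of 0.777 in edgeR's test, and it differed from that at 1.5 h by -0.34 ± 0.330. Fresh cells had 28.8, 45.1 and 24.0 CPM, a range that held 5 of the 6 control libraries and reached above the EPO libraries at 4.0 h. The gene ncl, which encodes nucleolin, a binder of precursor ribosomal RNA, was at 27.0, 29.9 and 47.7 CPM in control culture at 1.5 h and 31.6, 40.9 and 37.8 CPM with EPO. Its groups overlapped in every comparison, and its log2 fold change with EPO was 0.08 ± 0.228 at 1.5 h and -0.18 ± 0.229 at 4.0 h.

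**Figure D2:**
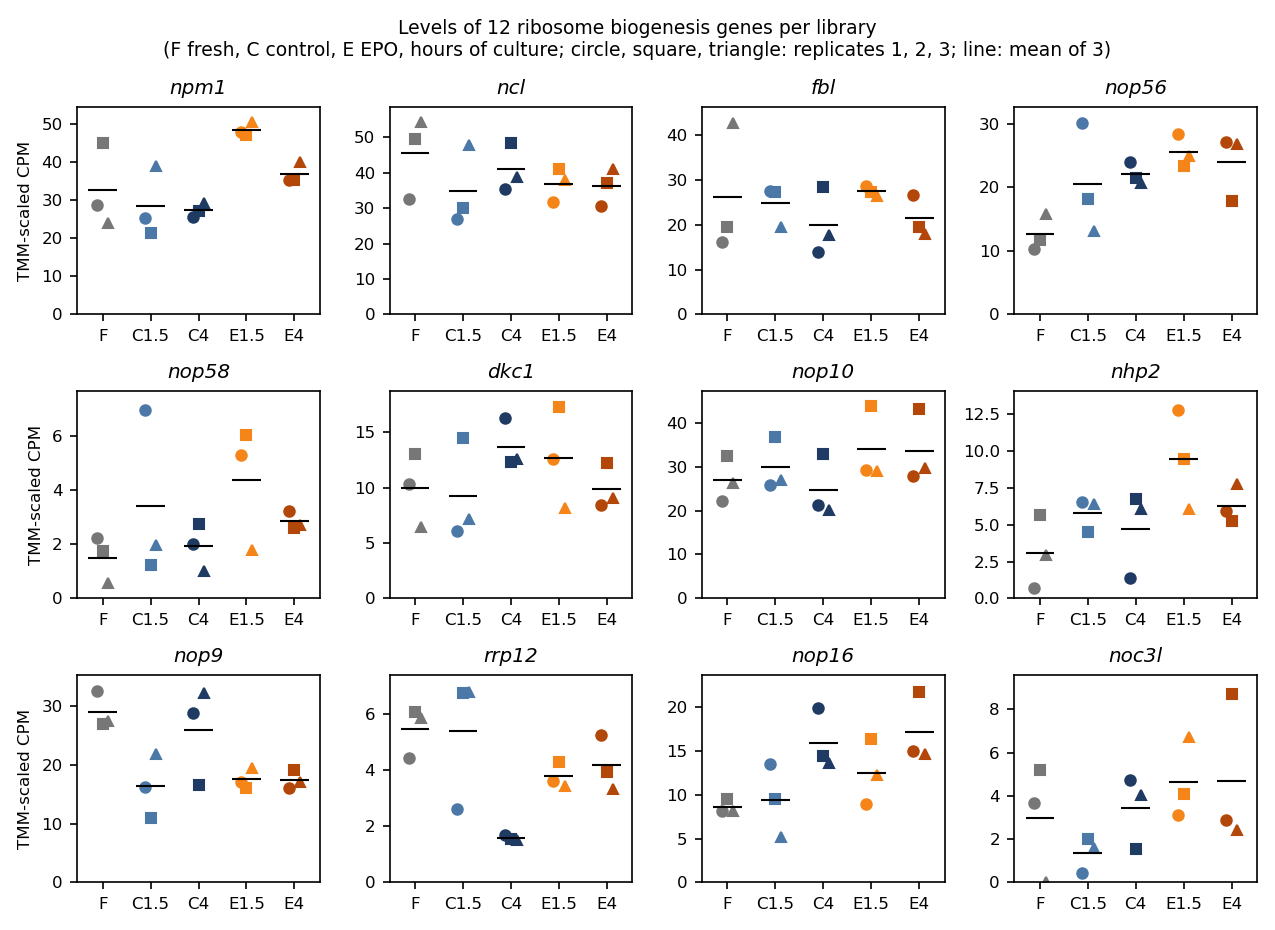
Level of 12 ribosome biogenesis genes (y axis, TMM-scaled CPM, from 0, a separate scale per gene) in each library of the 5 groups, with the symbol giving the replicate number and a line at the mean of 3. The npm1 level is between 47.2 and 50.5 CPM in the EPO libraries at 1.5 h, and rrp12 is between 1.51 and 1.69 CPM in control culture at 4.0 h.

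The box C/D snoRNP is built of fibrillarin, the methyltransferase (fbl), and the scaffold proteins Nop56 and Nop58 (nop56, nop58). The nop56 level was 10.3, 11.7 and 15.8 CPM in fresh cells, 30.1, 18.2 and 13.1 CPM after 1.5 h of control culture and 24.0, 21.5 and 20.7 CPM after 4.0 h. The 4.0 h libraries all lay above the fresh ones, and 1 of the 1.5 h libraries lay among them. Against fresh cells the log2 fold change was 0.68 ± 0.313 at 1.5 h (adjusted p 0.474 in edgeR's test) and 0.80 ± 0.312 at 4.0 h (adjusted p 0.428). With EPO nop56 was at 28.5, 23.3 and 24.9 CPM at 1.5 h and 27.1, 17.8 and 26.8 CPM at 4.0 h, overlapping the controls.

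Its partners gave other values. The fbl level ranged from 13.9 to 42.7 CPM, both ends being cells without EPO, and its log2 fold change was between -0.38 and 0.14 in the 5 comparisons of groups. The nop58 level was 0.585 to 6.98 CPM over all libraries, too low for a narrow estimate: its log2 fold change was 1.12 ± 0.858 for control culture at 1.5 h against fresh cells and -0.71 ± 0.780 for 4.0 h against 1.5 h.

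The H/ACA snoRNP holds dyskerin, the pseudouridine synthase (dkc1), with Gar1, Nhp2 and Nop10. In dkc1 the EPO libraries at 4.0 h (8.47, 12.2 and 9.1 CPM) lay just below the controls (16.2, 12.3 and 12.6 CPM), with a log2 fold change of -0.49 ± 0.380 and an adjusted p of 0.860 in edgeR's test. At 1.5 h the EPO libraries (12.5, 17.3 and 8.19 CPM) overlapped the controls (6.11, 14.5 and 7.16 CPM), with an opposite sign of 0.41 ± 0.377. The nhp2 level with EPO at 1.5 h was 12.8, 9.43 and 6.06 CPM against 6.54, 4.49 and 6.37 CPM in controls, a log2 fold change of 0.71 ± 0.513 with overlap. The nop10 level was highest in replicate 2 of all 5 groups (32.5, 36.7, 32.8, 43.8 and 43.1 CPM), and its log2 fold change with EPO was 0.18 ± 0.248 at 1.5 h and 0.40 ± 0.254 at 4.0 h. The gar1 level ranged from 7.28 to 19.2 CPM and its widest difference between groups was -0.44 ± 0.368, between 4.0 h and 1.5 h of control culture.

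The small subunit processome and early 40S factors formed the largest group, with 20 tested genes of 21. None had an unadjusted p under 0.05 in any comparison in the edgeR test without the block. With EPO at 1.5 h 8 were higher and 12 lower, with a median log2 fold change of -0.05, and at 4.0 h 12 were higher and 8 lower, with a median of 0.09. The gene nol10, whose yeast counterpart belongs to the processome, was at 12.1, 14.6 and 14.3 CPM with EPO at 1.5 h against 6.98, 11 and 8.75 CPM in controls, without overlap (0.60 ± 0.365, adjusted p 0.829 in edgeR's test). The nol7 level was 9.16, 14.1 and 10.2 CPM against 6.11, 8.73 and 5.57 CPM, also without overlap (0.69 ± 0.401, adjusted p 0.798). At 4.0 h both pairs of groups overlapped, with log2 fold changes of 0.07 for nol10 and 0.19 for nol7. Controls at 1.5 h had the lowest mean nol7 level of the 5 groups, 6.80 CPM. Fresh cells were at 8.12, 13.4 and 7.60 CPM of nol7 and control culture at 4.0 h at 8.12, 10.4 and 10.6 CPM. Both overlapped the EPO libraries at 1.5 h.

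Several processome genes with the widest differences were also among those with the fewest counts. The log2 fold change with EPO at 1.5 h was -0.72 ± 0.616 for utp18, a subunit of the UTP-B complex, and 0.92 ± 1.21 for utp25, which had 76 counts in all libraries together. At 4.0 h it was 0.76 ± 0.745 for rrp9, a U3 snoRNP protein, 0.61 ± 0.670 for nol6, a subunit of the UTP-C complex, and 0.62 ± 0.666 for noc4l, the partner of Nop14. Of these only noc4l had no overlap at 4.0 h, with 3.39, 4.35 and 4.24 CPM in EPO libraries and 3.38, 3.07 and 1.01 CPM in controls. The rrp36 level was highest with EPO at 1.5 h, at 44.4, 31.9 and 27.5 CPM against 31.8, 23.0 and 17.9 CPM in controls, with overlap and a log2 fold change of 0.51 ± 0.284 (adjusted p 0.774 in edgeR's test). RefSeq lists rrp36 as a long non-coding RNA gene in this frog. Of the 54 genes it lists 52 as protein-coding and 1 more as another type of RNA (misc_RNA).

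Late 40S factors cut the last spacer and escort the subunit out of the nucleus, and 7 of 8 were tested. In yeast, Nop9 binds the 40S precursor and holds back its last cut by Nob1. The nop9 level was 32.5, 26.9 and 27.5 CPM in fresh cells and 16.1, 11 and 21.9 CPM after 1.5 h of control culture, all 3 below the fresh libraries. This was a log2 fold change of -0.84 ± 0.295, with an unadjusted p of 0.00744 and an adjusted p of 0.294 in edgeR's test. After 4.0 h of control culture it was 28.7, 16.6 and 32.2 CPM, overlapping both, and with EPO it was 17.1, 16 and 19.5 CPM at 1.5 h and 16.1, 19.1 and 17.1 CPM at 4.0 h. Libraries of fresh cells also had 309 to 486 CPM of granulocyte and monocyte markers, against 236 to 318 CPM in control culture at 1.5 h and 238 to 330 CPM at 4.0 h. The part of these cells in the nop9 difference, or in any other difference from fresh cells, was not tested.

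The gene rrp12, whose yeast counterpart is needed for the export of ribosomal subunits, was lowest in control culture at 4.0 h. It was at 1.69, 1.53 and 1.51 CPM there, from as few as 3 counts in a library, and at 4.43, 6.07 and 5.85 CPM in fresh cells. It was at 2.62, 6.74 and 6.76 CPM in control culture at 1.5 h and 5.25, 3.92 and 3.33 CPM with EPO at 4.0 h. These 3 controls were the lowest of the 15 libraries and overlapped no other group. The log2 fold change was -1.77 ± 0.636 against fresh cells (adjusted p 0.379 in edgeR's test), -1.76 ± 0.616 against 1.5 h (adjusted p 0.999) and 1.38 ± 0.612 for EPO at 4.0 h (adjusted p 0.591). The EPO comparison and both culture comparisons share these control libraries. The EPO effect at 4.0 h exceeded that at 1.5 h by 1.90 ± 0.814, with an unadjusted p of 0.0253 from edgeR, and 2.55% of all tested genes had an unadjusted p under 0.05 there.

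Other late 40S factors overlapped between groups with 1 exception. The ltv1 level, of an adaptor for 40S export in yeast, was 3.05, 2.61 and 4.55 CPM with EPO at 4.0 h against 7.10, 5.52 and 5.54 CPM in controls, without overlap (-0.79 ± 0.508, adjusted p 0.825 in edgeR's test). At 1.5 h its difference was 0.47 ± 0.494, of opposite sign. The bysl level, of bystin, ranged from 16.2 to 36.8 CPM, with a log2 fold change of -0.49 ± 0.271 for control culture at 4.0 h against fresh cells. The nuclease gene nob1 had 0 to 23 counts in a library and a log2 fold change of 0.91 ± 0.801 between 4.0 h and 1.5 h of control culture.

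All 13 of the tested 60S factors failed the adjusted threshold. In this group the scaffold trio of Pes1, Bop1 and Wdr12, which joins the first domains of the large subunit RNA, gave no shared direction. For EPO at 1.5 h the log2 fold change was 0.01 ± 0.289 for pes1, 0.21 ± 0.606 for bop1 and -0.12 ± 0.453 for wdr12. The pes1 level stayed within 12.6 to 25.7 CPM over all 15 libraries. The bop1 level was 0.738, 5.63 and 0 CPM in fresh cells and 4.36, 7.98 and 4.77 CPM after 1.5 h of control culture, a log2 fold change of 1.26 ± 0.723 that rests on few fresh counts. The zero in fresh replicate 3 allows up to 1.75 CPM at 3 counts.

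The gene nop16, whose yeast counterpart sits on 60S precursors, was at 8.12, 9.54 and 8.18 CPM in fresh cells, 13.5, 9.48 and 5.17 CPM after 1.5 h and 20.0, 14.4 and 13.6 CPM after 4.0 h of control culture. The 4.0 h libraries all lay above both earlier groups. The log2 fold change was 0.89 ± 0.380 against fresh cells (adjusted p 0.527 in edgeR's test) and 0.78 ± 0.359 against 1.5 h (adjusted p 0.999). In yeast, Noc3 travels with 60S precursors together with Noc2. The noc3l level was 3.14, 4.09 and 6.72 CPM with EPO at 1.5 h against 0.436, 2.00 and 1.59 CPM in controls, without overlap, a log2 fold change of 1.71 ± 0.783 (adjusted p 0.625). The lowest control value is 1 count. Controls at 1.5 h had the lowest mean noc3l level of the 5 groups, 1.34 CPM. Fresh cells were at 3.69, 5.20 and 0 CPM and control culture at 4.0 h at 4.74, 1.53 and 4.03 CPM. Both overlapped the EPO libraries at 1.5 h. At 4.0 h the noc3l groups overlapped, with a log2 fold change of 0.37 ± 0.741. The nol12 gene, whose yeast counterpart trims the ends of 60S precursor RNA, was at 13.9, 13.9 and 21.1 CPM with EPO at 4.0 h against 10.8, 11.3 and 6.55 CPM in controls, without overlap (0.76 ± 0.354, adjusted p 0.655).

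Of the remaining 60S genes with wide differences, noc2l and nol8 each differed in sign between comparisons. The noc2l log2 fold change was -1.16 ± 0.731 for control culture at 1.5 h against fresh cells, 0.99 ± 0.692 for EPO at 1.5 h and -0.79 ± 0.762 for EPO at 4.0 h. Against fresh cells nol8 had a log2 fold change of 1.52 ± 0.874 for control culture at 1.5 h and 1.54 ± 0.875 for that at 4.0 h, where fresh levels were 0, 2.60 and 0.585 CPM. At 4.0 h its mean was lower with EPO, at 2.47 CPM against 3.54 CPM in controls. For rrp1b the log2 fold change was -0.55 ± 0.641 with EPO at 1.5 h. The nop53 level ranged from 39.9 to 95.8 CPM, both ends in fresh cells. The nol4l gene, matched by symbol only, was at 21.4, 8.67 and 14.6 CPM in fresh cells and 25.4, 18.4 and 26.7 CPM after 4.0 h of control culture, with overlap (0.69 ± 0.312, adjusted p 0.562 in edgeR's test).

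**Figure D3:**
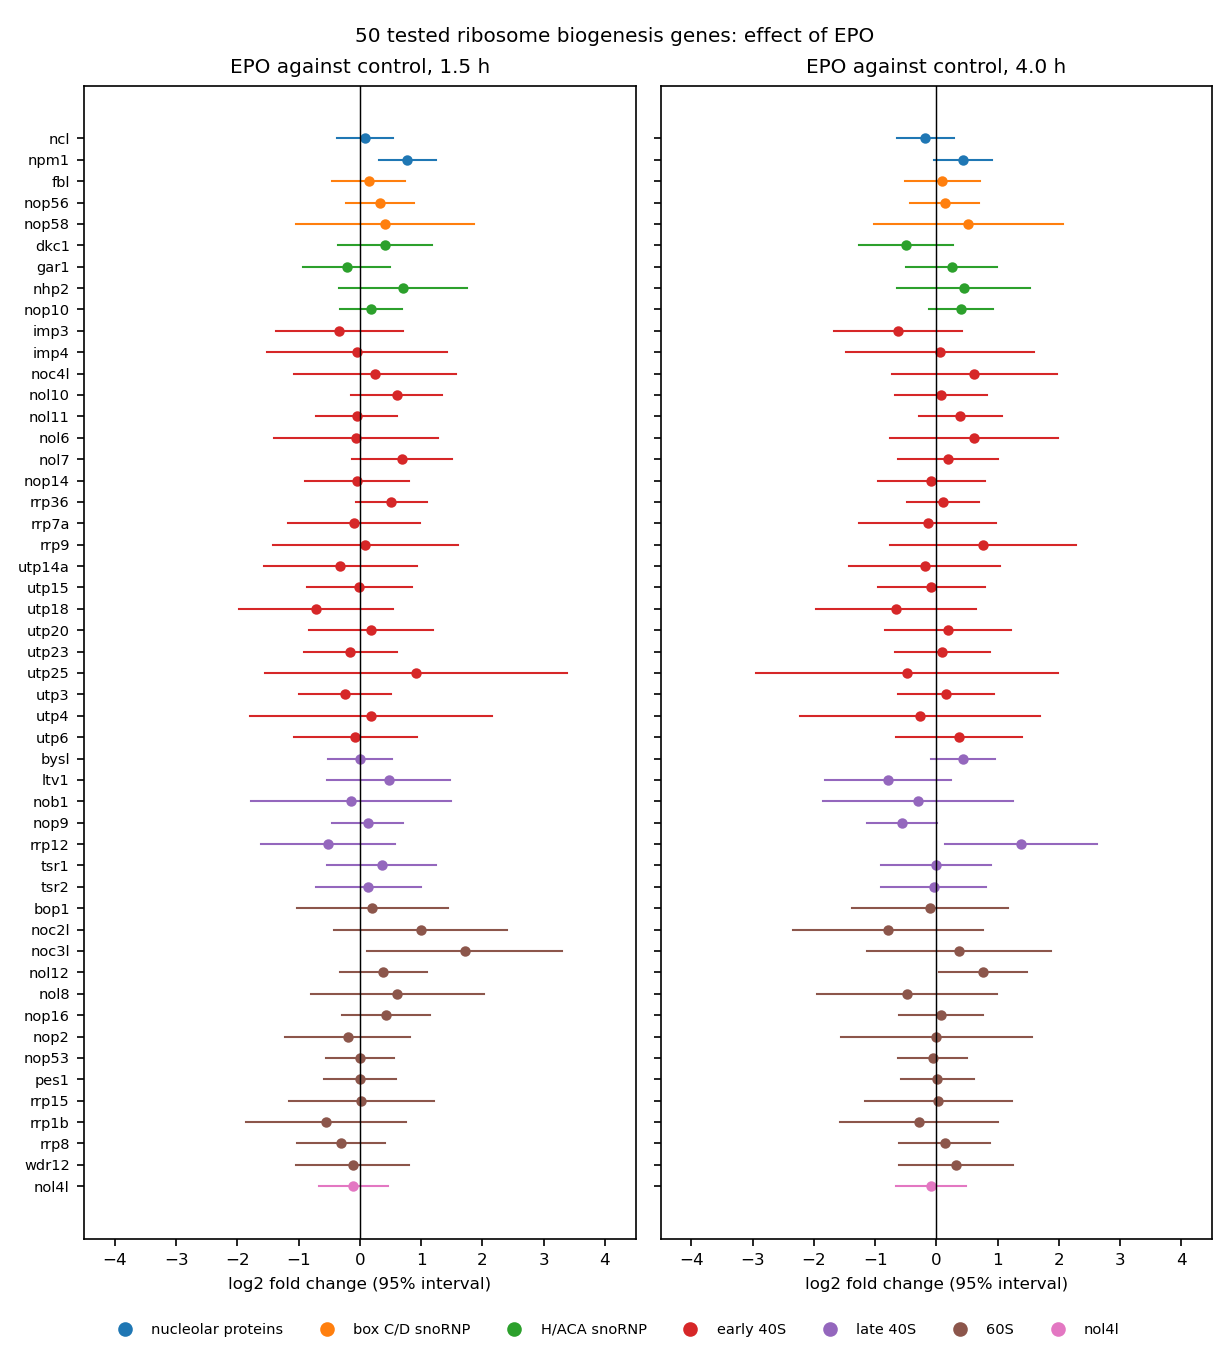
Log2 fold change (x axis) of the 50 tested genes for EPO against control at 1.5 h (left) and 4.0 h (right), ordered and coloured by role, with 95% intervals of the edgeR fit without the block. Most intervals cross 0. At 1.5 h 2 lie above it, npm1 and noc3l, and at 4.0 h 2 do, rrp12 and nol12.

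Across the 50 genes, EPO against control at 1.5 h gave 30 higher and 20 lower, with a median log2 fold change of 0.09 beside -0.02 for all tested genes. At 4.0 h 29 were higher and 21 lower, with a median of 0.07 beside 0.00. Groups did not overlap for 4 genes above and 0 below at 1.5 h, where 14.8% of all tested genes had no overlap. At 4.0 h it was 5 above (npm1, rrp12, nol12, noc4l and nol11) and 2 below (dkc1 and ltv1), where 14.4% of all tested genes had none. Both counts are near or under the share of all genes.

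Control culture against fresh cells gave 25 higher and 25 lower at 1.5 h, with a median of 0.00, and 29 higher and 21 lower at 4.0 h, with a median of 0.12. The medians of all tested genes were 0.02 and 0.01. Groups did not overlap for 1 gene below (nop9) and 0 above at 1.5 h, where 13.6% of all genes had no overlap. At 4.0 h it was 2 above (nop16, nop56) and 1 below (rrp12), where 11.6% had none. From 1.5 h to 4.0 h of control culture 23 were higher and 27 lower, with a median of -0.05, and 1 gene above (nop16) and 1 below (rrp12) had no overlap, where 8.28% of all genes had none.

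**Figure D4:**
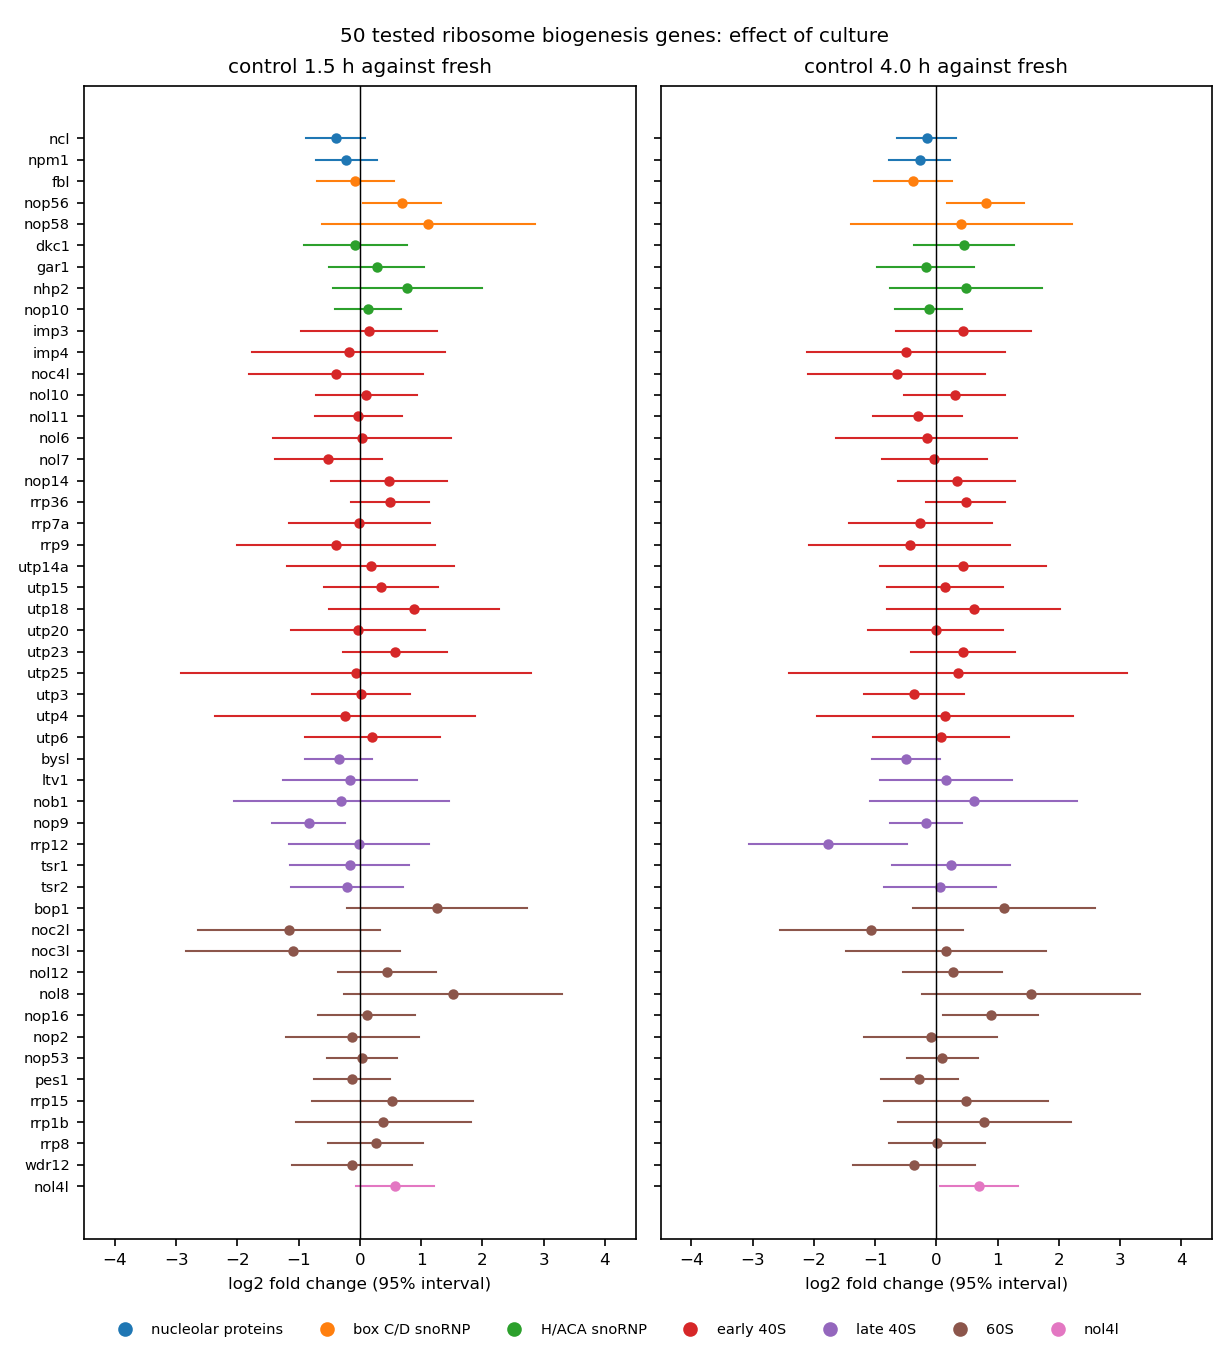
Log2 fold change (x axis) of the 50 tested genes for control culture at 1.5 h (left) and 4.0 h (right) against fresh cells, ordered and coloured by role, with 95% intervals of the edgeR fit without the block. Late 40S genes all lie at or below 0 at 1.5 h, and 3 of 7 do at 4.0 h. Both panels share the fresh libraries.

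By role, the 7 late 40S genes were all lower in control culture at 1.5 h than in fresh cells, with a median log2 fold change of -0.21 and a range of -0.84 to -0.01, but only nop9 had an unadjusted p under 0.05 in edgeR's test. At 4.0 h 4 were higher and 3 lower. Both nucleolar chaperones were lower in culture at 1.5 h and at 4.0 h, with medians of -0.31 and -0.22. The 3 box C/D genes were higher with EPO at both times, by medians of 0.33 and 0.14. Their log2 fold changes were 0.14 to 0.41 at 1.5 h and 0.10 to 0.52 at 4.0 h, with no unadjusted p under 0.05 in edgeR's test. Other roles were mixed with EPO. Of the 4 H/ACA genes 3 were higher and 1 lower at both times. Of the 13 60S genes 9 were higher and 4 lower at 1.5 h, and 8 and 5 at 4.0 h. Late 40S genes gave 5 higher and 2 lower at 1.5 h, and 2 and 5 at 4.0 h. Both chaperones were higher at 1.5 h, and 1 was higher and 1 lower at 4.0 h.

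The median SE of a log2 fold change over the 50 genes was 0.45 for EPO at 1.5 h and 0.48 for control culture at 1.5 h against fresh cells. The 95% interval lay within a 2-fold change in either direction for 16 of 50 genes with EPO at 1.5 h, 20 at 4.0 h, 12 and 10 in control culture against fresh cells at 1.5 h and 4.0 h, and 15 from 1.5 h to 4.0 h. For the other genes a change of 2-fold was not excluded at this depth. The mean level of 29 of 50 tested genes was under 10 CPM, with a median of 7.98 CPM over the tested genes, and 8 of them had 0 counts in at least 1 library.

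Other genes of the pathway gave the same count. A list of 119 further ribosome assembly and RNA polymerase I genes had 105 tested, and 0 passed in all 6 comparisons with edgeR, with or without the block. At an unadjusted p under 0.05 there were 4, 4, 3, 1, 5 and 2 of 105, beside 9.69%, 8.1%, 3.73%, 7.13%, 7.1% and 2.55% of all tested genes, and the median log2 fold change was 0.00 for EPO at 1.5 h and 0.05 at 4.0 h. The cytosolic ribosomal proteins, the products that the assembly line consumes, had 79 of 80 tested and 0 passed with edgeR, with 0 at an unadjusted p under 0.05 in all 6 comparisons. With the block 1 of them passed as lower for EPO at 1.5 h, where 0.481% of all tested genes passed as lower. At an unadjusted p under 0.05 with the block, 25 of 79 (31.6%) were lower there and 0 higher, against 4.64% of all tested genes lower. Their median log2 fold change for EPO at 1.5 h was -0.10 in both fits, with 77 lower and 2 higher without the block and 76 lower and 3 higher with it. Their median SE there was 0.131 without the block and 0.0571 with it, narrower than the 0.45 and 0.44 of the assembly factors. The plain share of counts in ribosomal protein genes did not show this fall. It was 18.8, 21.6 and 20.9% in EPO replicates 1, 2 and 3 at 1.5 h. In controls it was 18.9, 21.5 and 21.1%, so EPO was lower in replicates 1 and 3 and higher in replicate 2. The TMM factor was larger in the EPO library of each replicate number. The part of this scaling in the fall was not tested.

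Some of these counts may hold reads of a neighbour, since the handling of strand is not given in the sources used here. RefSeq places a protein-coding gene over tsr1 (srr), rrp8 (dnhd1), nop16 (arl10), nol8 (cenpp), bop1 (scx), tsr3 (gnptg) and rrp12, and snoRNA genes within nop56, nop58, ncl and dkc1. Over all libraries the neighbour had more counts than the untested tsr3, at 499 for gnptg against 77. It had 289 for srr against 376 for tsr1, 370 for dnhd1 against 525 for rrp8, 179 for arl10 against 702 for nop16 and 74 for cenpp against 202 for nol8. The neighbour of rrp12 had 37 against 215, and scx had 5 against 293 for bop1. The snoRNA genes had 0 to 4 counts each. Long non-coding RNA genes overlap rrp1b and utp20, with 0 and 1 counts.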

How the data were processed

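The deposited table holds whole-number counts per gene, 1 column per library, made by the authors from 3' RNA-seq libraries (Lasy-Seq, per the labels). Among the tools in the submitters' processing notes are BWA 0.7.17-r1188, fastp 0.21.0, R 4.3.2 and Salmon. What each did, and which build, annotation and strand setting were used, is not given in the sources used here. RefSeq symbols of UCB_Xtro_10.0 matched all 54 genes and served for names and neighbours only. A search of promoters was not run.

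Group differences were fitted with edgeR 4.0.16 under R 4.3.3: filterByExpr, TMM scaling, 5 group means and robust quasi-likelihood tests over all 15 libraries (10 residual degrees of freedom), two-sided, with Benjamini-Hochberg adjustment over 8939 genes per comparison and a threshold of 0.05. An SE is the log2 fold change divided by the square root of F. The 3 largest rises and falls per comparison, all genes past the threshold, and the genes the selection rule lists with nop10, nop56 and nop58 were named. Others (nol7, nol10, nol11, nol4l, nop53, rrp36) were chosen after their values were seen. Of these, nol7, nol10 and nol11 had non-overlapping groups, nol4l had a low unadjusted p in edgeR's test, and nop53 had the most counts. The genes and lists were chosen with earlier results of these data known. Same-numbered libraries were checked for pairing on 1405 genes: their deviations from the group means correlated at 0.281 to 0.627 over 30 pairs, differently numbered ones at -0.390 to 0.0521 over 60 pairs, and 15 of 15 libraries correlated best with their own number. Because deviations cancel within a group, the values of differently numbered libraries are not separate evidence. The labels give numbers only, so pairing is read from the data, and the block fit has 8 residual degrees of freedom. The edgeR test was tested on simulated data, with changes set in 200 genes above 10 CPM. The simulation held no effect of the replicate number and no changed gene of lower level. Every change set in it was larger than any log2 fold change of the tested ribosome biogenesis genes in the fit without the block. It therefore does not cover those cases or smaller changes. Alternatives were DESeq2 1.42.0 (size factors, Wald test), limma 3.58.1 voom, other filters, only the groups compared, the block and leaving out each library.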

Additional observations from a re-analysis of the deposited data

How the results depend on the processing

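No ribosome biogenesis gene passed an adjusted p of 0.05 in the fit without the block, and 97 of 102 alternative counts over the 6 comparisons stayed at 0, genes to which DESeq2 gave no adjusted p being left out of its counts. The 5 that did not gave 1 gene, npm1, in EPO against control at 1.5 h: limma voom, the replicate block, the block with DESeq2 size factors, the block in the DESeq2 Wald test, and the block without control replicate 3. Without the block, leaving out 1 library gave 0 genes in all 6 comparisons. With the block, leaving out 1 library was run only for EPO against control at 1.5 h. These runs were not planned, and they gave 0 to 1 gene. The block changed no other call. The log2 fold change of npm1 lay between 0.55 and 1.07 and its adjusted p between 0.0110 and 0.602 over 21 alternatives. Without the block and with 1 library left out, 0 of 6 passed (adjusted p 0.0813 to 0.602). The pathway list of 105 genes was run in fewer settings, all with edgeR: the block, and each library left out without the block. It gave 0 in all 48 of these alternatives, and it was not run with limma voom or DESeq2.

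The median log2 fold change of the 50 genes changed sign in 16 of 96 alternatives. A filter at a mean of 10 CPM left 20 of these genes, so its medians are over another gene set, and 2 of its 6 differed in sign. For control culture against fresh cells it ran from -0.15 (without control replicate 2) to 0.27 (without fresh replicate 2) at 1.5 h and from -0.01 (without fresh replicate 3) to 0.39 (without fresh replicate 2) at 4.0 h, and it was -0.07 over the 20 genes. For EPO at 1.5 h it ran from 0.00 to 0.23, and at 4.0 h from 0.01 to 0.11. The cause was not tested.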
